A study of Mus musculus with 12 samples.

Results

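The regions described here were stretches of distal chromatin that carried H3K4me1 peaks in both wild-type (WT) libraries and in neither Fbxw7 knockout (KO) library of mouse embryonic fibroblasts. To find them, the 4 deposited H3K4me1 peak lists were merged wherever peaks shared at least 1 bp, on all autosomes except 4, 10, 16 and 19. Regions more than 1 kb from any protein-coding gene end were called distal. Of 69867 distal regions on the 15 chromosomes used, 4779 were WT-only (6.84%), out of 75214 merged regions on these chromosomes and 94400 on chromosomes 1 to 19 and X. The reverse rule, both KO libraries and neither WT library, gave 3596 KO-only regions (5.15%), and 21012 distal regions (30.1%) had a peak in all 4 libraries. The members were chosen by the presence of H3K4me1 peaks in the 4 libraries, so every H3K4me1 value below is a description with no test.

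The study profiled chromatin by Cut & Run, in which an antibody directs a nuclease to a mark or protein and the released DNA fragments are sequenced. The cells were mouse embryonic fibroblasts, connective tissue cells taken from embryos, either Fbxw7 KO or WT, grown in DMEM medium with fetal serum and non-essential amino acids. Antibodies against H3K4me1, H3K4me3 and MLL4 were each used in 2 libraries per genotype, 12 in all. Neither the deleted part of Fbxw7 nor the strain is given in the labels, and they do not say whether libraries with the same antibody and genotype were grown apart, so a p-value reflects only how far these samples lie from each other, which may be technical.

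H3K4me1 is a histone mark common at enhancers, the regulatory DNA that acts on genes from a distance, whereas H3K4me3 marks the promoters of active genes. MLL4, encoded by Kmt2d, is a methyltransferase that places H3K4me1 at enhancers. Fbxw7 recognises the substrates of an SCF ubiquitin ligase and directs proteins such as cyclin E, Myc, Jun and the Notch receptors to degradation.

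A small share of the WT-only regions held an annotated transcription start, mostly of a long non-coding RNA (lncRNA), and these are the places where sequence could be set beside the peaks. Of the 4779 WT-only regions, 54 (1.13%) overlapped a RefSeq window from 250 bases before to 50 bases after a start, 45 with an lncRNA start and 9 with a protein-coding start. The corresponding shares were 0.779% of KO-only regions, 1.77% of regions in all 4 libraries, which were longer, and 1.36% of all distal regions. Per Mb of region there were 15.7 such regions among the WT-only, 11 among the KO-only, 13.9 among those in all 4 libraries and 17.3 among all distal regions. The windows below lay wholly inside a WT-only region and are shown because they cover the different states of H3K4me3 at these starts. At Gm15222, an lncRNA gene near Bmp4 (chr14:46387228-46387527, plus strand), and at Gm30771, an lncRNA gene near the cyclin E gene Ccne1 (chr7:38061030-38061329, plus strand), the region had H3K4me3 in both WT libraries and in neither KO library. At an internal start of Fis1, a mitochondrial fission gene (chr5:136961827-136962126, plus strand), it had H3K4me3 in all 4 libraries. At that of Mad1l1, a spindle checkpoint gene (chr5:140174869-140175168, minus strand), and at Gm46111, an lncRNA gene near Drd2 (chr9:49410801-49411100, minus strand), it had H3K4me3 in none. The Gm46111 region was the best ranked of those that held a whole window, with −log10 q of 9.22 and 13.7 in the WT libraries. The sequences are those of RefSeq on GRCm38.p6, which shares its coordinates with mm10, written 5′ to 3′. Capitals mark matches on either strand to AP-1 (TGANTCA), TEAD (GGAATG), RUNX (TGTGGT), C/EBP (TTGCNNAA), CREB (TGACGTCA) and GC box (GGGCGG) motifs; the common E-box (CANNTG) is not marked.
Gm15222: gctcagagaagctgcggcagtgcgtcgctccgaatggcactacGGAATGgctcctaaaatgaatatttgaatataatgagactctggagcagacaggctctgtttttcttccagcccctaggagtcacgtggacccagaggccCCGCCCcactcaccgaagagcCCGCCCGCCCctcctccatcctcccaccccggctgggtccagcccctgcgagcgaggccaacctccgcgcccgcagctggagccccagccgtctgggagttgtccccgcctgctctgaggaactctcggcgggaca
Gm30771: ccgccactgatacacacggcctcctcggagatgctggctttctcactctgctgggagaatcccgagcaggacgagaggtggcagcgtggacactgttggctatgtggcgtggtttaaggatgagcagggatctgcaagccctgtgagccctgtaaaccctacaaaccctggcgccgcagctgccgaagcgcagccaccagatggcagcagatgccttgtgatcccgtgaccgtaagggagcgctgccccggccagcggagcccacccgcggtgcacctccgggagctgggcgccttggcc
Fis1: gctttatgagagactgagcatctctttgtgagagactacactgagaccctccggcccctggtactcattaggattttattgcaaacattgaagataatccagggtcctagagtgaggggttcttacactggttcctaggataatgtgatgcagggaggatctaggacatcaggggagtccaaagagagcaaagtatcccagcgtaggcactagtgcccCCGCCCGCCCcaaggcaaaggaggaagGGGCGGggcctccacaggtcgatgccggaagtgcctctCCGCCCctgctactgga
Mad1l1: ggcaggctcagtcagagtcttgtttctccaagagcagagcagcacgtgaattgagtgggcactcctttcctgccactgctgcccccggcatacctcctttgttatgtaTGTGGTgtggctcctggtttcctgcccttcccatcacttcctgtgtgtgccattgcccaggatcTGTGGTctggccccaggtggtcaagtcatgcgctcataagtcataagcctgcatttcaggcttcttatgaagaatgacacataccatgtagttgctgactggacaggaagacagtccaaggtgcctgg
Gm46111: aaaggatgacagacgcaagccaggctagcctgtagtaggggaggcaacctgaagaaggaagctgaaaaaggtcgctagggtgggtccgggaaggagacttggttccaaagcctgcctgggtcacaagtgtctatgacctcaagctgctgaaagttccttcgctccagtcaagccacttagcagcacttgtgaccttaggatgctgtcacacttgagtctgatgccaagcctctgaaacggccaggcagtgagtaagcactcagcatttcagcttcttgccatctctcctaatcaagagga

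Gm15222 thus held 1 TEAD and 3 GC box matches, Fis1 held 4 GC boxes, Mad1l1 held 2 RUNX matches, and the Gm30771 and Gm46111 windows held none of the motifs in capitals. Among the 22 windows, from 20 genes, that lay wholly inside WT-only regions, 6 held AP-1 letters (27.3%), against 7.91% of 25546 start windows on the same chromosomes. TEAD letters were in 22.7% against 14.5%, RUNX letters in 22.7% against 16.7%, C/EBP letters in 13.6% against 11% and the E-box CANNTG in 77.3% against 72.4%. The GC box was in 22.7% against 35.5%, and CREB letters were in 0 of 22 windows against 1.88%. The median GC content of the windows was 48% against 53%. Motif letters may overlap one another, these few windows were not chosen at random, and a match describes letters only. All of them but the Fis1 and Mad1l1 windows were lncRNA starts, whereas the comparison took all start windows. Starts inside KO-only or shared regions were not compared, so these shares cannot be tied to the WT-only pattern. The 6 windows with AP-1 letters are shown around the match, in capitals, since AP-1 was the motif with the highest ratio to all starts. They belong to lncRNA starts at Gm30246 (chr14:76780680-76780726, plus strand), Gm32183 near Sorcs2 (chr5:36162045-36162091, plus strand), Gm39666 near Serpine2 (chr1:79788074-79788120, plus strand), Gm33089 at Ptprs (chr17:56487379-56487410, plus strand, where the window ended), Gm33906 near Tmtc4 (chr14:123043196-123043242, plus strand) and C130083M11Rik near Dhx15 (chr5:52216557-52216603, minus strand). None of these 6 regions had an H3K4me3 peak in any library.
Gm30246: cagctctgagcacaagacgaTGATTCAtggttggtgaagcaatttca
Gm32183: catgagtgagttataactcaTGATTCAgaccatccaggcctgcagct
Gm39666: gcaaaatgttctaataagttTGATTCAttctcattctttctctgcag
Gm33089: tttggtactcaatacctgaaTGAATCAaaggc
Gm33906: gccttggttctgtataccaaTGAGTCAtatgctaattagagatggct
C130083M11Rik: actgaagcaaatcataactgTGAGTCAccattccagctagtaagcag

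The H3K4me1 libraries held 13627038 and 12611409 filtered fragments in KO and 12607690 and 11604131 in WT, and 53120 to 62065 peaks each on chromosomes 1 to 19 and X. The H3K4me3 libraries held 5519477 and 5938102 fragments in KO and 11319701 and 6185767 in WT, and the MLL4 libraries 4435103 to 5838305. As a check of the cell label, H3K4me3 lay at gene ends of 5 and 5 of 13 fibroblast markers in KO and of 11 and 10 in WT, whereas Pdgfra and Prrx1 had none in any library. Of 6 markers each, neural genes had 0 and 0 with H3K4me3 in KO and 3 and 3 in WT, endothelial genes 2 and 1 in KO and 2 and 2 in WT, and haematopoietic genes 0 and 0 in KO and 2 and 1 in WT. Epithelial, myogenic and pluripotency genes had 0 in both KO libraries and at most 1 in each WT library. The markers with none in any library were Pecam1, Cdh5, Tek and Tie1 (endothelial), Ptprc, Runx1, Gata1 and Csf1r (haematopoietic) and Sox1, Neurod1 and Pax6 (neural). To these came Cdh1, Krt8, Krt18, Esrp1 and Grhl2 (epithelial), Myod1, Myf5, Pax7, Myog and Des (myogenic) and Pou5f1, Nanog, Sox2, Zfp42 and Esrrb (pluripotency). The other markers of these lineages had H3K4me3 in at least 1 library.

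WT-only regions were weak within the WT lists. Their median −log10 q, the caller's false discovery value for a peak, was 5.34 in WT replicate 1 and 5.27 in WT replicate 2, where distal regions present in all 4 libraries had 7.81 and 7.32. Ranked within the whole list, the median WT-only region stood at percentile 41.5 and 40.8, and the region in all 4 libraries at 71.7 and 69.4. The median pileup, the number of fragments over the summit, was 16 and 15 against 23 and 22, and the median fold over the local background was 4.42 and 4.41 against 4.79 and 4.78. Median length was 678 bp against 1212 bp, in part because a region merged from 4 peaks is longer than one merged from 2. KO-only regions looked the same from the other side, with a median −log10 q of 5.23 and 4.99 and percentiles of 42.2 and 39.5 in the KO lists and a median length of 669 bp.

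A minority of WT-only regions was strong. In WT replicate 1 59.2% and in WT replicate 2 54.3% reached a −log10 q of 5, and 1738 regions (36.4%) did so in both. A −log10 q of 10 was reached by 241 regions in WT replicate 1, 168 in WT replicate 2 and 30 in both. Taking the lower of a region's WT percentiles, 937 regions (19.6%) stood at 50 or above, 179 (3.75%) at 75 or above and 20 (0.418%) at 90 or above. The WT libraries ordered the members only loosely, with a Spearman rank correlation of 0.277 over the 4779 regions, where the 21012 regions in all 4 libraries gave 0.456; these are descriptions across regions of the same pair of libraries.

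The share of WT peaks missing from KO fell steadily with strength. Of the 31721 distal regions held by both WT libraries, 4779 (15.1%) had a peak in neither KO library, 5930 (18.7%) in 1 and 21012 (66.2%) in both. Among regions at percentiles 0 to 10 34.4% were WT-only, against 15.4% of those at percentiles 40 to 50, 2.98% at 80 to 90 and 1.09% at 90 to 100, where 20 of 1834 were WT-only. The regions nearest to the rule on the other side were those with a peak in 1 KO library, 3686 in KO replicate 1 alone and 2244 in KO replicate 2 alone. Their median KO −log10 q was 4.83, and 536 (9.04%) had a KO value under 3. On the inside, 499 members (10.4%) had a WT value under 3 in at least 1 library, and the lowest were 2.02 and 2.00. A KO peak lay at a median of 7522 bp from a WT-only region, within 500 bp of 406 (8.50%) and within 10000 bp of 2839 (59.4%). Because presence in a genotype rests on 1 library when the other is left out, the WT-only count was 11133 without WT replicate 1, 12934 without WT replicate 2, 8578 without KO replicate 1 and 7090 without KO replicate 2.

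**Figure D1:**
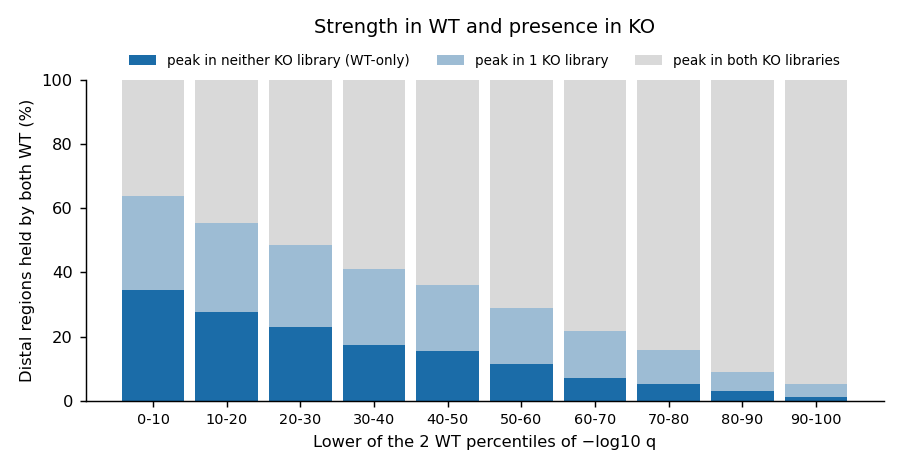
Distal H3K4me1 regions with a peak in both WT libraries, split along the horizontal axis by the lower of their WT percentiles of −log10 q. Stacked bars give the percent with a peak in neither KO library (WT-only, dark blue), in 1 (light blue) and in both (grey); the WT-only share is 34.4% in the weakest bin and 1.09% in the strongest.

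The strongest members lay inside or near genes of varied function. First by the lower of both WT percentiles was a site inside Inpp5a, which encodes an inositol polyphosphate phosphatase, with pileups of 31 and 28 fragments in the WT libraries and the nearest KO peak 33.1 kb away. The region inside Ulk4, a gene for a kinase-like protein, had −log10 q of 14.0 and 15.9 (chromosome 9, 121132581 to 121133270) and lay 153 kb from the nearest gene end and 66.3 kb from a KO peak. The region inside Gad2, which encodes a glutamate decarboxylase that makes the transmitter GABA, had 13.7 and 13.8 (chromosome 2, 22661171 to 22661914). The member inside Hmbox1, a homeobox gene, had 15.0 and 11.8 (chromosome 14, 64834306 to 64835134). Fam53c, Plekha6, Clint1 and Pdia6 were also among the genes of the 10 best-ranked members. A further 1 (chromosome 7, 111189705 to 111190156) had no gene end within 100 kb and a KO peak 0.698 kb away, whereas for the other 9 that distance was 2.21 to 66.3 kb. None of the 10 had an H3K4me3 peak in any library.

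WT-only regions lay closer to genes than KO-only regions. By the assignment used throughout, 2554 (53.4%) lay inside a protein-coding gene, 1466 (30.7%) outside but within 100 kb of a gene end, and 759 (15.9%) beyond that. Of KO-only regions 44.7% lay inside, 28.2% within 100 kb and 972 (27.0%) beyond. Of regions in all 4 libraries 49.1% lay inside, 30.7% within 100 kb and 20.1% beyond. The median distance to a gene end was 33.1 kb for WT-only, 56.9 kb for KO-only, 43.4 kb for regions in all 4 libraries and 37.8 kb for all distal regions. The median distance was shorter for WT-only than for KO-only on 15 of 15 chromosomes, the share beyond 100 kb was lower on 15 of 15 and the share inside genes was higher on 13 of 15. The exceptions for the last were chromosomes 7 and 17. The whole lists differed in the same direction by less: 20.61% and 20.61% of the distal regions held by the KO libraries and 18.4% and 18.6% of those held by the WT libraries lay outside genes and beyond 100 kb.

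Along the distance to the nearest gene end, counted for regions inside genes too, the WT-only share was 6.98% at 1 to 5 kb, 7.45% at 5 to 20 kb, 7.40% at 20 to 50 kb, 6.60% at 50 to 100 kb and 6.02% beyond. The KO-only share ran the other way, from 3.76% at 1 to 5 kb through 5.20% at 50 to 100 kb to 6.76% beyond, where it passed that of WT-only. At the 1 kb limit of the rule, 152 members lay at most 500 bp beyond it, the closest to a gene end at 1001 bp. On the other side 110 regions of the same presence pattern lay at most 500 bp short of it, the farthest at 993 bp.

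**Figure D2:**
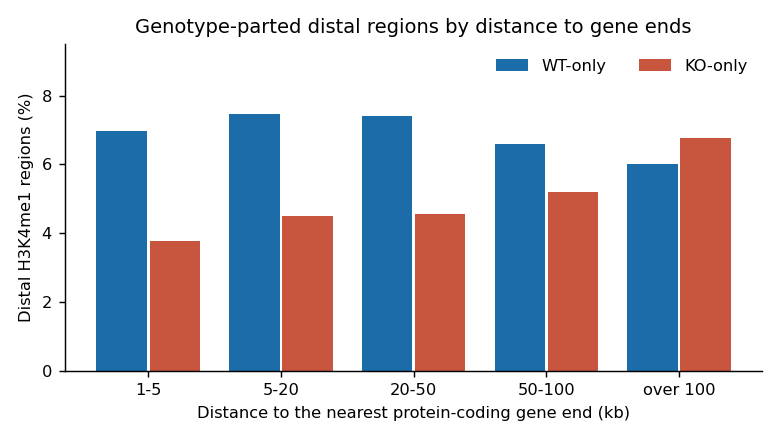
Percent of distal H3K4me1 regions that were WT-only (blue, left) and KO-only (red, right) in bins of distance to the nearest protein-coding gene end. The WT-only bars stay between 6.02% and 7.45%, and the KO-only bars climb to 6.76% in the bin over 100 kb.

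Chromosomes differed in their share of WT-only regions over a narrow range. The share was lowest on chromosome 11 at 5.28%, highest on chromosomes 6 and 14 at 8.49% and 8.48%, and 6.87% in the median chromosome. KO-only shares ran from 4.35% on chromosome 7 to 6.48% on chromosome 12, with a median of 5.17%. WT-only regions outnumbered KO-only regions on 13 of the 15 chromosomes. The ratio was 1.87 on chromosome 14, 1.71 on chromosome 6 and 1.61 on chromosome 7, against 0.961 on chromosome 11 and 0.951 on chromosome 12. Copy number in the KO and WT cells was not measured, and its part in these shares was not tested. The WT lists were also longer here, with 50050 and 45775 peaks against 47619 and 42383 in KO. With lists of equal length the totals were 4237 WT-only and 3788 KO-only regions. The totals turn on the library left out: 7090 and 10894 without KO replicate 2, but 12934 and 5386 without WT replicate 2.

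**Figure D3:**
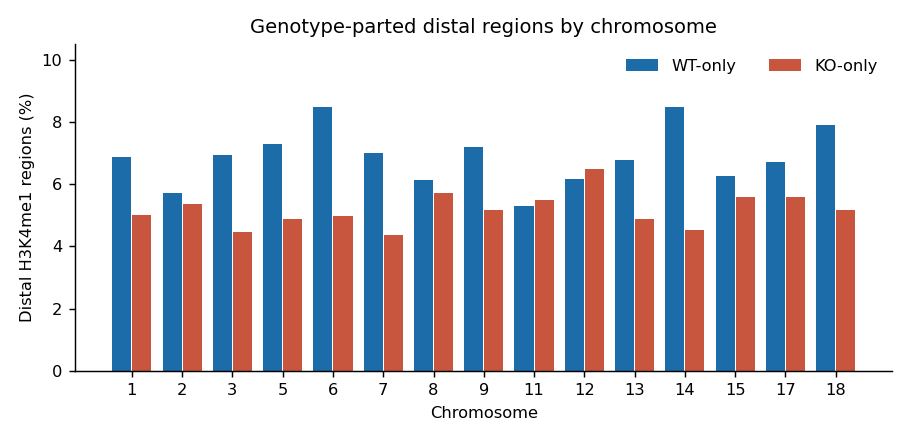
Percent of distal H3K4me1 regions on each of the 15 chromosomes used that were WT-only (blue, left) and KO-only (red, right). Chromosomes 6 and 14 have the highest WT-only bars, and on chromosomes 11 and 12 the KO-only bar is the higher one.

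WT-only regions followed one another along the chromosome slightly more often than their share of all regions. The next distal region was also WT-only for 391 of 4775 (8.19%), against a share of 6.84%; the other 4 were the last on their chromosome. The next region was KO-only for 202 (4.23%) against 5.15%. KO-only regions were followed by KO-only regions in 7.56% of cases against 5.15%. At short range the values were level. When the gap was at most 2 kb, 37 of 633 WT-only regions (5.85%) were followed by another, against 6.16% of all regions with such a gap, and the values were 7.55% against 6.77% at 2 to 10 kb, 8.88% against 7.09% at 10 to 50 kb and 10% against 7.11% over 50 kb. The next region was WT-only in 18.4% without WT replicate 1, 21.7% without WT replicate 2, 14.1% without KO replicate 1 and 11.7% without KO replicate 2. The share of all regions was then 17.5%, 19.8%, 13.4% and 10.7%, so that the ratio of 1.20 stood at 1.05 to 1.10.

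Most WT-only regions stood alone. Of the runs of consecutive distal regions that were all WT-only, 4037 held 1 region, 314 held 2, 34 held 3 and 3 held 4. A run of 4 lay at Gm7361 and Dpp6, a modulator of potassium channels (chromosome 5, 26221235 to 27732829), with WT −log10 q of 4.89 to 9.59. Its Gm7361 regions ended at 26272708 and its Dpp6 regions began at 27679138, with no distal region of any pattern between them. Another lay at Apbb3, E230025N22Rik and Zmat2 (chromosome 18, 36677686 to 36801747). The best-ranked runs of 3 lay inside Trim66 (chromosome 7, 109470366 to 109493839) and inside Inpp4b, a phosphoinositide phosphatase gene (chromosome 8, 81691944 to 81757200, −log10 q of 8.28 and 7.73 at the first of its regions).

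Assignment to the containing or nearest gene placed 4020 members at 2733 of the 9930 genes that had any distal region (27.5%). At least 2 members fell to 786 genes (7.92%), at least 3 to 295 (2.97%) and at least 5 to 47 (0.473%). For KO-only regions 1926 genes (19.4%) had at least 1 and 142 (1.43%) at least 3. Of the 2733 genes with a WT-only region, 1911 (69.9%) had no KO-only region and 822 had both. At least 3 WT-only and no KO-only regions were found at 134 genes, and at least 3 KO-only and no WT-only regions at 48. Genes with at least 3 WT-only regions numbered 1012 without WT replicate 1, 1241 without WT replicate 2, 734 without KO replicate 1, 535 without KO replicate 2 and 449 when peaks had to cover 50% of a region.

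How many WT-only regions a gene had followed how many distal regions it had. Genes with at least 3 members had a median of 22 distal regions, against 3 over all 9930 genes, and the rank correlation of members with distal regions across these genes was 0.462 as a description, with the members counted in both. A member was present at 8.12% of genes with 1 distal region, 38% of those with 5 to 9, 77.8% of those with 20 to 39 and 95.2% of those with 40 to 97. The share of regions that were WT-only, which takes this number out, stayed between 6.39% and 8.12% in these classes and was 8.12% for genes with a single region, 7.40% at 5 to 9 regions, 6.39% at 20 to 39 and 7.07% at 40 to 97. Among all regions assigned to a gene it was 7.12%.

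**Figure D4:**
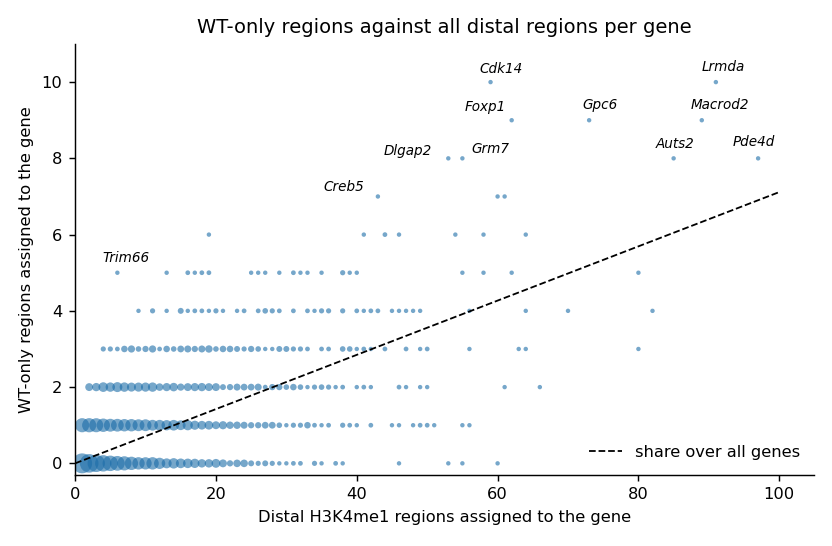
WT-only regions per gene (vertical axis) against all distal H3K4me1 regions per gene (horizontal axis), with the size of a dot growing with the number of genes at that place and the dashed line at the share over all genes, 7.12%. Cdk14 and Lrmda have 10 WT-only regions each, of 59 and 91 distal regions, and Trim66 has 5 of 6.

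The genes with the most WT-only regions were long genes, 413 to 1998 kb from end to end. Cdk14, a kinase gene that acts with cyclin Y in Wnt signalling (chromosome 5, 4803384 to 5380251), had 10 WT-only and 0 KO-only of its 59 distal regions. KO libraries had a peak at 34 and 32 of these 59, against 52 and 46 in the WT libraries. The −log10 q of its 10 members ran from 3.24 to 7.85 in WT replicate 1 and from 3.29 to 8.31 in WT replicate 2, so none was among the strongest. Lrmda, a gene named for melanocyte differentiation, also had 10, but of 91 regions and with 2 KO-only, and KO libraries had a peak at 54 and 51 of the 91, against 68 and 59 in the WT libraries. The forkhead factor gene Foxp1 had 9 of 62 (4 KO-only), with 35 and 27 held in KO and 44 and 43 in WT. The glypican gene Gpc6 had 9 of 73 and Macrod2, which encodes a hydrolase of ADP-ribose marks, 9 of 89. Macrod2 had 6 KO-only regions as well, and Pde4d, a cyclic AMP phosphodiesterase gene, had 8 WT-only and 9 KO-only of its 97. The genes Dlgap2, a postsynaptic scaffold, and Grm7, a metabotropic glutamate receptor, had 8 of 53 and 8 of 55 with 1 KO-only each, Auts2 8 of 85 and the CREB-family factor gene Creb5 7 of 43. The share of their distal regions that was WT-only ran from 8.25% at Pde4d to 16.9% at Cdk14, which follows in part from choosing them by their WT-only count.

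By share rather than number, the first 10 genes had 5 to 9 distal regions and were 3.21 to 401 kb long. Genes with at least 5 distal regions of which at least 1 in 3 was WT-only numbered 97 of 3600 (2.69%). Trim66, which encodes a tripartite-motif protein that reads histone tails (chromosome 7, 109449001 to 109516759), had 5 of 6 regions WT-only; KO libraries had a peak at 0 and 0 of the 6, against 6 and 5 in the WT libraries. Its best-ranked member had −log10 q of 10.1 in WT replicate 1 and 8.25 in WT replicate 2. The member with 10.8 in WT replicate 1 had only 2.92 in WT replicate 2, and another had 2.90 and 3.18. KO peaks lay 4.34 to 32.9 kb away from the Trim66 members. Ntrk3, the receptor gene for neurotrophin-3 (chromosome 7, 78179986 to 78581034), had 3 of 5, held by 0 and 0 KO and by 4 and 4 WT libraries' peaks, with the nearest KO peak 100 to 261 kb from its members. Phc3, a Polycomb subunit gene, and Sntg2, a syntrophin gene, had 3 of 5, and the centrosome gene Cep120 and the tenascin gene Tnn had 3 of 6. Atp9b had 4 of 9, and Armc9, Cdca2 and D1Pas1 had 3 of 7. Some of these members were near the cutoff: the best rank at Phc3 was 4172 of 4779, and −log10 q at Atp9b was 2.52 to 3.90 in WT replicate 2. All 10 genes had 0 KO-only regions, which follows in part from choosing them by their WT-only share. Of all genes with a WT-only region, 69.9% had no KO-only region. With 5 to 9 regions per gene, 1 region moves such a share by over 10 points.

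**Figure D5:**
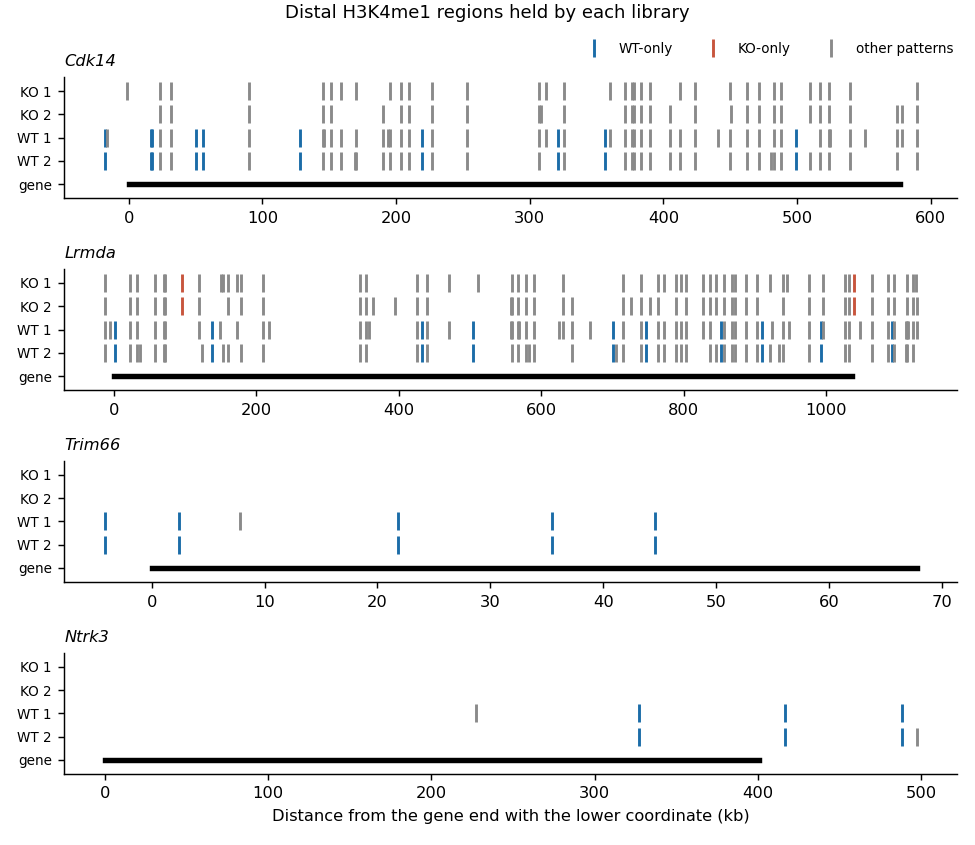
Distal H3K4me1 regions with a peak in each library (rows, KO above WT) at Cdk14, Lrmda, Trim66 and Ntrk3, along the distance in kb from the gene end with the lower coordinate; the black bar is the gene, blue ticks are WT-only regions, red ticks KO-only regions and grey ticks regions of other patterns. At Cdk14 WT-only regions lie among many shared ones, and at Trim66 and Ntrk3 the KO rows are empty.

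Genes of fibroblasts and their matrix had few WT-only regions for the many distal regions they carry. Of 23 such genes with a distal region, 7 had a member, but only 7 of their 292 distal regions were WT-only (2.40%), against 6.84% of all distal regions. The KO-only ones numbered 11 (3.77%), against 5.15%. Col1a2, Col3a1 and Col5a2, which encode fibrillar collagens, Eln, Fbn1 and Pdgfra had 1 each, and Prrx1, Col6a3 and Col5a1 had 0 of 22, 21 and 20. At Col1a2, KO libraries had a peak at 13 and 15 of 24 regions, against 12 and 16 in WT; its 1 member (chromosome 6, 4454650 to 4455794) had −log10 q of 8.34 and 7.22. The adhesion and cytoskeleton list had 36 of 527 (6.83%) at 16 of 29 genes, near the 6.84% of all distal regions. Arhgap26, a gene for a GTPase-activating protein, led it with 7 of 60 and had the region ranked 12th of all members (chromosome 18, 39082724 to 39084014), with −log10 q of 12.3 and 11.1. Daam1 had 4 of 33, and the integrin gene Itga11, the focal adhesion kinase gene Ptk2 and the vinculin gene Vcl had 3 each. The mesenchymal transcription factor list had 49 of 718 (6.82%) at 21 of 35 genes, with Foxp1, Creb5, Sox5 (4 of 35), Runx2 (3 of 47) and Tcf4 among those in front.

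Of the 5 signalling lists, growth factor receptors and guidance genes were at 7.26% WT-only regions and the other 4 at 4.55% to 6.02%, against 6.84% of all distal regions and 7.12% of those assigned to a gene. Growth factor receptor and guidance genes had 35 WT-only and 20 KO-only of 482 distal regions. A member fell to 13 of 21 genes (61.9%), where 27.5% of all genes had one. These genes had a median of 19 distal regions. Among all genes a member was present at 59.0% of those with 10 to 19 regions and 77.8% of those with 20 to 39. Slit3, a guidance ligand gene, had 7 of 61. Nrp1, a co-receptor for semaphorins and VEGF, had 4 of 27 and no KO-only region. KO libraries had a peak at 13 and 12 of these 27, against 20 and 20 in the WT libraries. Its strongest member (chromosome 8, 128559077 to 128559962), 53.6 kb from the gene end, had −log10 q of 9.36 and 14.4. The TGF-beta and BMP list had 20 WT-only and 15 KO-only of 332 at 12 of 27 genes, led by the receptor gene Bmpr1b with 4 of 31 and the latent TGF-beta binding gene Ltbp1 with 3 of 41. Ltbp1 had 5 KO-only regions as well. The Wnt list had 15 WT-only and 10 KO-only of 259 at 8 of 26 genes. Tcf7l1, a transcription factor of the pathway, had 4 of 18 regions WT-only, and its co-receptor gene Lrp6 and the ligand gene Wnt7b had 3 of 14 and 3 of 15, all with 0 KO-only. The Hedgehog list had 6 WT-only of 132 (4.55%), 3 of them at Gli3, which also had 3 KO-only, and more KO-only regions, 9 (6.82%). The Yap and Tead list had 8 of 169 (4.73%), 2 of 11 at Yap1 and 0 of 37 at Tead1, and 5 KO-only.

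Genes of known Fbxw7 substrates had 7 WT-only (5.56%) and 5 KO-only (3.97%) of 126 distal regions, against 6.84% and 5.15% of all distal regions. A WT-only region fell to 3 of 20 such genes (15%), against 27.5% of all genes with a distal region. These genes had a median of 3.5 distal regions, and among all genes with 2 to 4 the share was 18.9%. Ppargc1a, a transcriptional coactivator gene, had 4 of 33 and Notch1 had 1 of 9. The cyclin E gene Ccne1 had 2 of 6, both outside the gene. The first of these (chromosome 7, 38070933 to 38071246), 26.7 kb from the gene end, had −log10 q of 10.1 and 8.59 in WT and a KO peak 9071 bp away. The second held the Gm30771 start and was weaker, with 5.04 and 3.09, and a peak of KO replicate 1 began 14 bp from its edge. The substrate genes Myc, Hif1a and Notch2 had 0 of 10, 14 and 16. The Notch pathway list had 6 of 163 (3.68%), 3 of them at the coactivator gene Maml3, and the AP-1 list 2 of 67 (2.99%), 1 each at Fos and Maf, with 4 KO-only. Adipogenic and C/EBP genes had 10 of 183 (5.46%), sterol and lipid genes 2 of 83 (2.41%) and cell cycle genes 6 of 86 (6.98%). Among genes of the H3K4 methylation machinery 4 of 45 regions were WT-only (8.89%) and 3 were KO-only (6.67%). Kmt2c, which encodes the MLL3 methyltransferase, had 2 of 14 regions WT-only. The demethylase gene Kdm5b and Ncoa6, a subunit of the MLL3 and MLL4 complexes, had 1 WT-only region each. Of the markers of other lineages, endothelial genes had 2 WT-only and 4 KO-only of 48 regions and haematopoietic genes 1 and 2 of 35. Epithelial genes had 3 WT-only and 3 KO-only of 29. Neural genes had 4 and 2 of 65, with the strong Gad2 region among the WT-only ones. Myogenic genes had 1 and 1 of 46 and pluripotency genes 2 and 2 of 15, with both WT-only ones at Esrrb. Lists with few regions move by several points with 1 region.

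H3K4me3, which had no part in choosing the regions, lay over few of them, with the lower counts in the KO libraries. Of the 4779 WT-only regions, 19 (0.398%) and 23 (0.481%) had an H3K4me3 peak in the KO libraries, against 160 (3.35%) and 107 (2.24%) in the WT libraries. Both KO values were below both WT values. The means were 0.439 ± 0.0592% in KO and 2.79 ± 0.784% in WT (SD, n = 2 each), a difference of −2.35 points whose exact two-sided permutation p was 0.333, the smallest that 2 against 2 libraries allow. KO-only regions gave the same picture, 0.556% and 0.584% in KO against 3.95% and 2.67% in WT, and so did regions with H3K4me1 in all 4 libraries, with 0.400% and 0.471% against 5.74% and 3.28%. The H3K4me3 lists held 10397 and 11281 peaks in KO against 17460 and 16078 in WT, and WT replicate 1 was the deepest. Of the H3K4me3 peaks 32.2% and 34.0% in KO lay at protein-coding starts, against 49.5% and 47.9% in WT. The part of this in the H3K4me3 differences between the genotypes was not tested. With H3K4me3 lists of equal length the difference over the WT-only regions was −1.07 points.

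No H3K4me3 peak lay over 4611 of the WT-only regions (96.5%) in any library. Both WT libraries had one over 100, of which 72 had none in KO and 12 had one in both KO libraries, whereas 0 had H3K4me3 in both KO and neither WT library. These 100 lay close to genes, at a median of 6.83 kb from a gene end, with 43% within 5 kb. At Prag1, a pseudokinase gene, the region (chromosome 8, 36095915 to 36096884) lay 1.09 kb from a gene end, just past the limit of the rule. It had H3K4me3 −log10 q of 59.2 and 32.6 in the WT libraries and no H3K4me3 peak in KO. At Nfxl1 (chromosome 5, 72557926 to 72558391), 1.34 kb from a gene end, the values were 69.9 and 25.8, again with none in KO. At Slc38a2, an amino acid transporter gene, the region lay 20.4 kb from the gene end and had 13.8 and 6.51, and near Ltbp1 it lay 10.6 kb away and had 6.87 and 7.30. Near Zmat2, 1.44 kb from a gene end, H3K4me3 was called in all 4 libraries, at 3.83 and 2.84 in KO and 36.2 and 22.3 in WT.

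At the ends of the genes that WT-only regions were assigned to, both KO libraries had lower H3K4me3 shares than both WT libraries, and so it was at the genes with no such region. Of the 1911 genes with a WT-only and no KO-only region, 47.6% and 51.6% had H3K4me3 within 1 kb of a gene end in the KO libraries, against 70.9% and 67.7% in the WT libraries. The means were 49.6 ± 2.85% and 69.3 ± 2.22% (KO and WT, SD, n = 2 each), a difference of −19.6 points with an exact two-sided permutation p of 0.333, again the smallest possible. The difference was −24.6 points at the 134 genes with at least 3 WT-only and no KO-only regions. At the 822 genes with both WT-only and KO-only regions it was −23.8 points, with 46.1% and 51.3% in KO against 74.0% and 71.0% in WT. At the 1104 genes with KO-only and no WT-only regions it was −20.7 points, with 42.2% and 46.1% in KO against 66.3% and 63.5% in WT. At the 6093 genes with distal regions of neither kind it was −15.7 points, with 50.2% and 52.8% in KO against 68.6% and 65.8% in WT. Of the genes with H3K4me3 in both WT libraries, 228 of 1289 (17.7%) with WT-only regions had it in neither KO library, 20.7% with KO-only regions and 13.7% with neither. These groups also differed in their distal regions. The median was 5 for the 1911 and the 1104 genes, 16 for the 134 and the 822 genes, and 2 for those with neither kind. The part of that in the differences was not tested. With H3K4me3 lists of equal length the difference at the 1911 genes was −7.54 points.

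MLL4 peaks were not found over the WT-only regions. The 4 MLL4 lists held 40 to 69 peaks each on chromosomes 1 to 19 and X, and 0 of the 4779 regions overlapped any of them, which allows a share of up to 0.0628% per library. The nearest WT MLL4 peak to any WT-only region lay 3.93 kb away, and 2 regions lay within 10 kb of one. Of the 3596 KO-only regions an MLL4 peak lay over 5 and 3 in the KO libraries (0.139% and 0.0834%) and over 5 and 4 in WT (0.139% and 0.111%). Of the 21012 regions with H3K4me1 in all 4 libraries it lay over 10 in each library (0.0476%). That share is below the 0.0628% allowed for the WT-only regions, so the 0 does not set them apart from these. MLL4 was thus not detected at the WT-only regions in these lists, whose libraries held 4435103 to 5838305 fragments.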

How the data were processed

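Per the file headers, the authors called narrow peaks library by library with MACS2 (2.1.0.20150731), at a q cutoff of 0.01, with a local background over 10000 bp and no control library. The genome build, per the submitters' processing notes, was mm10, and the tools they list include Bowtie2 and SAMtools 1.5, without roles; the alignment settings are not given in the sources used here. Each deposited list gives the pileup signal at the summit (fragments, not scaled to depth), the −log10 of p and of q, and a fold ratio over the local background. These are the authors' values for a peak and were used here only to rank, filter and describe peaks within a list; q values depend on depth, and an absent peak shows that the site failed the cutoff there, not that the mark was missing. Headers limit duplicates to 2 fragments per position for H3K4me1 and for WT replicate 1 of H3K4me3, and to 1 elsewhere.

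Peaks were merged, and a library held a region when any of its peaks lay in it. A region was assigned to the protein-coding gene that contained it (nearest end where several did), otherwise to the nearest gene end within 100 kb, otherwise to none. Genes and starts came from RefSeq GRCm38.p6. Of WT H3K4me3 peaks 47.9 to 49.5% lay at its protein-coding starts, against 2.01 to 2.30% at starts moved by 10 kb. Of KO H3K4me3 peaks 32.2 to 34.0% did, against 1.56 to 1.58% at moved starts. Exons and introns were not told apart. Sequence under peak summits was not used here, so the planned summit windows were replaced by start windows inside the regions, chosen with the data in view. Percentiles rank −log10 q within a list on chromosomes 1 to 19 and X.

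H3K4me3 shares per library were compared by the exact two-sided permutation test over the 6 assignments of 4 libraries. Named regions and genes were the 10 best-ranked members, the 10 genes with the most members, the 10 with the highest share among genes with at least 5 distal regions, the 5 longest runs, the 10 best-ranked members with H3K4me3 in both WT lists, and, from each of 21 gene lists, up to 6 genes with a member and 3 without. The members and lists were chosen with earlier results of these data known. The limit of 3 counts given for a count of 0 covers counting error only. Replicate numbers were not taken as pairs, since no label ties them to a shared culture. The scripts (Python 3.11.15, pandas 2.3.3, scipy 1.17.1) recovered 100% of 5000 simulated regions with known patterns. The simulated regions lay well apart, with nearly coincident peaks and no missed calls. This checks only that the code merges and places peaks as written, not how weak or neighbouring peaks behave. A few results that the rule would name are not reported here.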

Additional observations from a re-analysis of the deposited data

How the results depend on the processing

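The WT-only count ran from 3875 to 6355 over 7 alternatives (equal list length, −log10 q of at least 5, peaks over 50% of a region, gene ends of 500 bp or 2 kb, all 19 autosomes, no KO peak within 500 bp), all within 1.5 times of 4779, and from 7090 to 12934 with 1 H3K4me1 library left out. KO-only regions numbered 2206 at a −log10 q of at least 5, up to 4663 under the others and 5386 to 10894 with a library left out. Genes with at least 3 WT-only regions numbered 449 when peaks had to cover 50% of a region, 204 to 359 under the others and 535 to 1241 with a library left out. The share of WT-only regions followed by another was 9.42% at a −log10 q of at least 5 (8.15% of all regions), 9.76% with 50% coverage (9.10% of all) and 11.7 to 21.7% with a library left out. The share beyond 100 kb, an outcome added after seeing the data, was lower for WT-only (15.5 to 17.2%) than for KO-only regions (23.3 to 28.1%) in 11 of 11 alternatives. The H3K4me3 differences kept their sign throughout, −1.07 to −2.91 points over WT-only regions and −7.54 to −28.4 points at gene ends. With the replicate number as a block they stayed at −2.35 and −19.6 points, with an exact sign-flip p of 0.5, the smallest that 2 pairs allow. The deviations of same-numbered H3K4me3 libraries correlated at 0.0204 over 9484 genes. With 2 libraries per genotype neither of these exact tests could pass 0.05, and the median WT-only summit rested on 16 and 15 fragments, which limits what a missing KO peak can show.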

Other observations

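Among the 3600 genes with at least 5 distal H3K4me1 regions, 6 had no region held by either KO library, a pattern looked for after the values were seen. These genes reached 5 regions through WT peaks alone, so their empty KO lists follow in part from the filter, and their number is a description. Besides Trim66 and Ntrk3 these were Apba2, a neuronal adaptor gene with KO peaks at 0 and 0 of its 9 regions, against 7 and 5 in the WT libraries, Arhgef17 (0 and 0 of 6, against 3 and 5), Car10 (0 and 0 of 6, against 6 and 2) and the circadian repressor gene Bhlhe41 (0 and 0 of 6, against 5 and 2). Of the 6 genes, 4 lie on chromosome 7 (Apba2, Arhgef17, Ntrk3 and Trim66), which held 4068 of the 69867 distal regions. The share of the 3600 genes on that chromosome was not counted, and so few genes picked after the fact say nothing about a chromosome. The reverse, no region held by either WT library, was found at 3 genes, which reached 5 regions through KO peaks alone, among them Sphkap, with 8 and 7 of 10 held in KO, against 0 and 0 in WT, and Cntn5, a contactin gene, with 6 and 5 of 7, against 0 and 0.

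In 5 Mb bins with at least 50 distal regions (388 bins), the WT-only share ran from 0 to 14.6%, with a median of 6.58%, and the KO-only share from 0 to 24.1%, with a median of 4.92%. The highest WT-only share was on chromosome 5 from 35 to 40 Mb, with 25 WT-only and 5 KO-only of 171 regions, and KO libraries held 93 and 85 of them, against 121 and 109 in WT. On chromosome 6 from 85 to 90 Mb 32 of 254 were WT-only. In 2 bins 0 regions were WT-only. On chromosome 11 from 25 to 30 Mb 16 of 102 were KO-only, and KO libraries held 76 and 70, against 52 and 53 in WT. On chromosome 1 from 25 to 30 Mb 13 of 54 were KO-only, and KO libraries held 41 and 39, against 14 and 16 in WT; 81.5% of that bin's regions lay beyond 100 kb of a gene. Across bins the WT-only and KO-only shares had a rank correlation of −0.400, as a description of bins from the same 4 libraries whose shares draw on the same regions. In the 97 bins with the lowest share of regions beyond 100 kb, WT-only regions made up 7.41% and KO-only regions 4.59%. In the 97 with the highest they made up 5.91% and 6.68%. In peak lists a difference in copy number between the KO and WT cells cannot be told apart from one in H3K4me1 over such stretches.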
